A study of Rattus norvegicus with 8 samples.

Results

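Kinesins and cytoplasmic dynein are the motor proteins that carry cargo along microtubules, and 65 of the 41012 probes on a rat whole-genome array measured their subunits in laser-captured neurons of the hippocampal CA3 region after traumatic brain injury. A probe was taken when its gene name on the array begins with Dctn, Klc, Kns, Dynlt, Dync, Dynll or Dynlr, or with Kif and a numeral. This gave 46 genes, 16 of them with more than 1 probe. Sorted by role, they were 18 axonal kinesin genes (31 probes), 12 genes of cytoplasmic dynein and its activator dynactin (15 probes), 9 mitotic kinesins (10 probes) and 7 ciliary and other motors (9 probes). Of the 65 probes, 28 carry an accession that is in the RefSeq annotation, and all 28 of these name the same gene there. A further 14 motor genes on the lists by role had no probe under these names.

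Degenerating neurons were compared with neighbouring neurons that did not degenerate. Male Sprague-Dawley rats had a moderate fluid percussion injury, a sham injury or no treatment (naive), and brains of injured rats were taken 24 hours after injury. In sections stained with Fluoro-Jade, a dye that marks degenerating neurons, CA3 neurons of injured rats were captured as dying (stained) or surviving (unstained) pools, and CA3 neurons of sham and naive rats formed the other groups. Each of the 4 groups had 2 arrays, each from a pool of neurons from several rats. Surviving neurons were taken only beside dying ones, so they stand for neurons of a damaged field. The labels name 2 amplification kits, Arcturus RiboAmp HS and MessageAMP II, without saying which pool had which. With 2 pools a group, the p-values below measure only the spread between these pools.

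All levels below are log2 of the processed signal over the median of its array, so that 0 is the array median, and pairs of values are replicates 1 and 2. The median signal was 28.8 and 22.7 on the naive arrays, 16.5 and 16.4 on the sham arrays, 52.4 and 48.3 on the surviving arrays, and 19.4 and 53.0 on the dying arrays. Of the 65 motor probes, 42 and 35 were well above background on the naive arrays, 39 and 37 on the sham arrays, 52 and 47 on the surviving arrays, and 36 and 48 on the dying arrays. Dying replicate 1 stands apart from its partner in both measures, and motor calls of dying neurons against sham are given with and without it. The naive and sham pools shared 1 slide and the surviving and dying pools another. A different protocol of Feature Extraction, the software that reads the scanned images, was used on each. Injury therefore cannot be told apart from slide and software protocol wherever injured pools are set against sham pools. The choice of scaling also moved the median of all tested probes. It ran from -0.47 to 0.55 over 7 scalings for dying minus sham, from -0.43 to 0.55 for surviving minus sham, from -0.18 to 0.35 for surviving minus dying and from -0.06 to 0.59 for sham minus naive. Class medians and several single differences are therefore also given relative to that median.

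The captured pools carried transcripts from a list of pyramidal neuron markers. On every array 7 or 8 of 8 interneuron markers were also well above background, so these levels alone do not set the type of neuron. Of 12 pyramidal markers, 10 had a probe, and 9 or 10 of these were well above background on every array, with the probe of neurogranin (Nrgn) the brightest throughout. Their summed level, in multiples of the array median, was 10200 and 15000 in naive, 20500 and 17500 in sham pools, 10200 and 10400 in surviving pools and 6290 and 6030 in dying pools. In bulk pools such as these, fewer cells of a type and less RNA per cell cannot be told apart.

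Neurons depend on these motors because axon terminals lie far from the cell body where most proteins are made. Most kinesins walk toward microtubule plus ends and carry vesicles, mitochondria and cytoskeletal proteins outward, while dynein with dynactin carries endosomes, autophagosomes and survival signals back to the cell body. Mitotic kinesins build and move the spindle of dividing cells and are little expressed in mature neurons.

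Among the 46 genes, read from the brightest probe of each, 24 were well above background on all 8 arrays: 12 axonal kinesins, 8 dynein and dynactin genes, 1 mitotic kinesin and 3 ciliary and other motors. On no array was this the case for 5 genes, namely the axonal kinesin Kif5c, 3 mitotic kinesins and the dynein light intermediate chain Dync1li1.

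In dying neurons set against sham neurons, some axonal kinesins, some subunits of dynein and dynactin and the ciliary kinesin Kif9 fell. In limma's fit, 16 of 40 tested motor probes passed an adjusted p of 0.05, a smaller share than the 43.4% of all tested probes, and all 16 fell, against 28.7% of all tested probes that passed and fell. At an unadjusted p under 0.05 there were 19, against 53.8%. The 16 probes belong to 14 genes by any probe, led by Kif21a, which carries cargo into axons and limits microtubule growth, Kif2a, which shortens microtubules, and Dync1i1, the dynein subunit that links the motor to dynactin. Of the 16, the probes of Dynlrb2 and Dctn5 and the dimmer probes of Kif5b and Kif2a were tested through the sham arrays alone. Each was well above background on 0 or 1 dying array, and entry by this route favours falls. Read from brightest probes, 7 of 18 axonal kinesins, 5 of 12 dynein and dynactin genes, 1 of 7 ciliary and other motors and 0 of 9 mitotic kinesins fell, of which 14, 10, 4 and 3 were tested, and 1 mitotic kinesin had an unadjusted p under 0.05. Of 28 motor probes well above background on all 4 arrays, 20 were lower on both dying arrays than on both sham arrays, against 56.5% of all such probes.

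The class medians over tested genes were -1.54 for 14 axonal kinesins and -1.41 for 10 genes of dynein and dynactin, where the median over all tested probes was -0.47. Relative to that they were -1.07 and -0.94. Over the 7 scalings the axonal median stayed between -1.54 and -0.52 and the dynein and dynactin median between -1.41 and -0.27, and without dying replicate 1 they were -0.99 and -1.15. Among the tested genes, Kif1b, Dynlrb2 and Dctn5 entered through the sham arrays alone and Kif13a through the dying arrays alone. Over all genes of the 2 classes, tested or not, the medians were -1.32 and -1.41. For mitotic kinesins the median depended on which genes were taken, at 2.05 over the 3 tested and -0.40 over all 9. Of the 3, Kif20a and Kif23 were tested through the dying arrays alone, being above background on 1 of 2 sham arrays, and most of the 9 were near background, so nothing is read from either value. The count of 16 fell to 6 without dying replicate 1, where 5 were lower and a dim Kif5b probe was higher, and it was 3 without sham replicate 1, 6 without sham replicate 2 and 10 without either surviving array. Of the 16 probes, those of Kif21a and Kif2a passed without each of the 8 arrays in turn and under 5 of 6 other scalings, the exception being normexp, under which 0 of all probes passed. The calls of Dync1i1 and of the dimmer Klc2 probe were lost only without sham replicate 1. The other 11 calls were each lost without dying replicate 1, without sham replicate 1 and without sham replicate 2, and 6 of them (Kif5a, Klc1, the brighter Klc2 probe, Kif3a, Kif9 and Dync1h1) also without either surviving array. These 6 and Dctn6 passed under 0 of the 6 other scalings, Kif3c under 1, Dynlrb2 and the dimmer Kif5b probe under 2 and Dctn5 under 3.

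Surviving neurons set against the same sham neurons gave fewer calls. Only Kif2a passed, with both of its probes: 2 of 48 tested motor probes, against 17.8% of all tested probes, and 7 at an unadjusted p under 0.05, against 36.3%. The dimmer Kif2a probe was tested through the sham arrays alone, being well above background on no surviving array. Of 33 motor probes well above background on all 4 arrays, 29 were lower on both surviving arrays than on both sham arrays, against 65.6% of all such probes. The class medians over tested genes were -0.81 for 17 axonal kinesins and -0.60 for 11 genes of dynein and dynactin, with -0.43 over all tested probes, and relative to those -0.38 and -0.18. The sign of both depended on the scaling, with ranges of -0.81 to 0.17 and -0.60 to 0.37. Among the axonal kinesins, Klc3, Kif13a, Kif16b and Kif21b were tested through the surviving arrays alone. Over all genes of the 2 classes, tested or not, the medians were -0.77 and -0.64. For mitotic kinesins the median was 0.21 over the 4 tested, 3 of them through the surviving arrays alone, and -0.65 over all 9, and nothing is read from either. The count of 2 was 0 without sham replicate 1 or without either surviving array, and 6 without either dying array.

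Between surviving and dying neurons, which shared a slide, 0 of 46 tested motor probes passed in limma's fit, as did 0% of all tested probes. At an unadjusted p under 0.05 there were 10, 9 higher and 1 lower in surviving neurons, near the 21.1% of all tested probes. The count was 12 without dying replicate 2, where the spread of the lone dying array is taken from the other groups and 5619 of all probes passed, and 1 under a crossed replicate block added after the data were seen. Of 35 motor probes well above background on all 4 arrays, 10 were higher on both surviving arrays, against 27.9% of all such probes, and 6 were lower on both, against 23%. A filter adapted from the study's methods (above background on all 4 arrays, replicates within 50% of each other, group means over 2-fold apart), which the methods set against sham, was here set between surviving and dying neurons. By it 6 motor probes passed the replicate step and 0 exceeded 2-fold, where of the 5691 probes of any gene that passed that step 10.6% were over 2-fold higher in surviving and 7.94% in dying neurons. Surviving over dying ratios of the 6 ran from 0.897 for Dctn4 to 1.56 for the dynein heavy chain Dync1h1.

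The class median over tested genes in this comparison was 0.85 for axonal kinesins, 14 of 17 of them higher in surviving neurons, 0.66 for dynein and dynactin with 8 of 10 higher, and -1.09 for mitotic kinesins with 3 of 4 lower. Klc3, Kif1b, Kif16b, Kif21b, Dynlrb2, Dctn5 and Kif4a were tested through the surviving arrays alone, being well above background on 0 or 1 dying array. All of these were higher in surviving neurons, a direction that the filter favours, so the counts and medians of tested genes lean that way. Over all tested probes the median was 0.15, with 15188 of 27206 higher. Relative to that the medians were 0.71, 0.51 and -1.24. Over the 7 scalings they ran from 0.53 to 0.94, from 0.34 to 1.56 and from -1.42 to -0.16, and with each array left out from 0.18 to 1.24, from 0.38 to 0.99 and from -1.82 to -0.36. Over all genes of a class, those not tested included, the medians were 0.87, 0.66 and -0.67. The last is mostly of kinesins near background and was 0.08 without dying replicate 1, so nothing is read from it. No test was run over the members of a class.

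**Figure D1:**
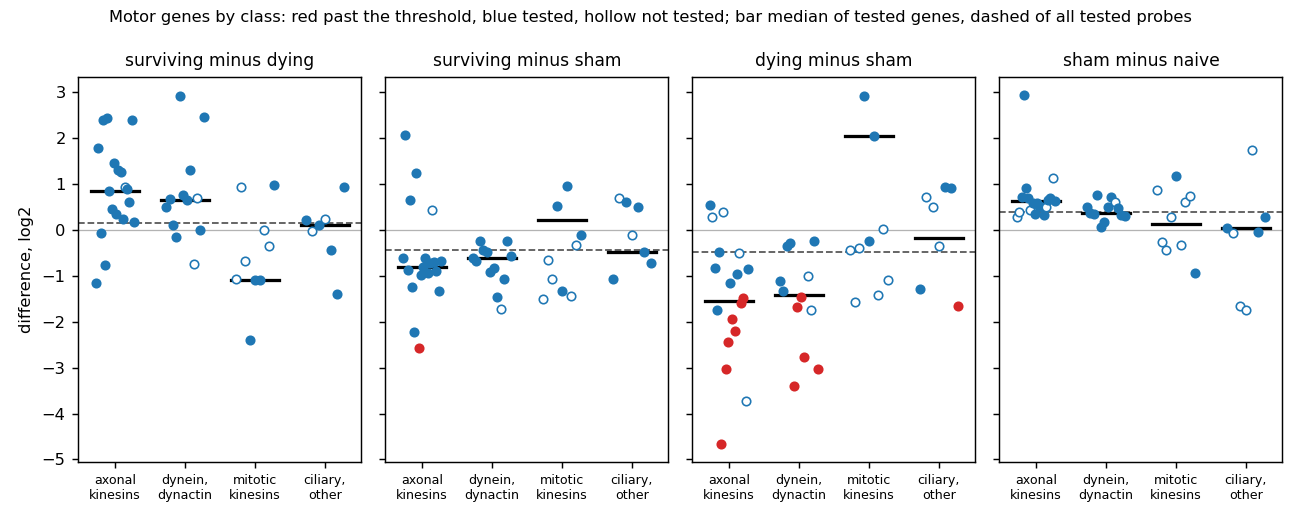
Difference of each motor gene (brightest probe, log2) in the 4 comparisons by class, with points past the threshold in red, other tested genes in blue and genes not tested hollow; bars are medians of the tested genes of a class and the dashed line is the median of all tested probes. Dying minus sham has 13 red genes, all below zero, and its axonal median of -1.54 and dynein and dynactin median of -1.41 keep their sign under all 7 scalings, whereas those of surviving minus sham turn under some.

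Sham minus naive, both on the other slide, tested whether the sham procedure moved the motors. Of 35 tested motor probes 0 passed in limma's fit, as did 0% of all tested probes, and 1 had an unadjusted p under 0.05, against 4.58%. Of 33 motor probes well above background on all 4 arrays, 15 were higher on both sham arrays, against 41.2% of all such probes. The class medians over tested genes were 0.63 for axonal kinesins, 0.36 for dynein and dynactin and 0.12 for the 2 mitotic kinesins tested, with 0.40 over all tested probes, so that the relative medians were 0.23, -0.04 and -0.28. Over the scalings the axonal median stayed positive (0.17 to 1.29), while those of dynein and dynactin (-0.10 to 1.25) and of mitotic kinesins (-0.34 to 0.28) turned. The members with the smallest p among those well above background on all 4 arrays were Kif1c at 0.92 ± 0.49, Kif22 at 1.17 ± 0.64 and Dctn4 at 0.77 ± 0.46, each with an adjusted p of 0.858.

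Kif21a had the largest fall among the motors read from brightest probes. Its level was 6.17 and 6.75 in naive, 7.26 and 7.05 in sham pools, 5.16 and 4.68 in surviving pools and 1.54 and 3.43 in dying pools. Every injured pool lay below every uninjured pool, and both dying pools lay below both surviving pools. Dying minus sham was -4.67 ± 0.65 (SE, n = 2 pools a group, limma adjusted p = 0.00223), or -4.20 relative to all tested probes, and -3.72 without dying replicate 1. Surviving minus sham was -2.23 ± 0.66 (adjusted p = 0.0508), short of the threshold and past it under 1 of the 7 scalings, and surviving minus dying was 2.44 ± 0.66 (adjusted p = 0.132). Kif21a also had a dim second probe, which was well above background only on surviving replicate 1 and dying replicate 2 and was not tested.

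Kif2a, a kinesin that does not walk but takes microtubule ends apart and restrains axon branching, fell in both kinds of injured neuron. Its brighter probe read 5.01 and 5.02 in naive, 5.72 and 5.47 in sham pools, 3.51 and 2.51 in surviving pools and 2.29 and 2.83 in dying pools. All 4 injured pools lay below all 4 uninjured pools, and surviving and dying pools overlapped. The difference from sham was -2.58 ± 0.51 in surviving (adjusted p = 0.0168, relative -2.16) and -3.03 ± 0.51 in dying pools (adjusted p = 0.0037, relative -2.57); both share the sham arrays. The dying value was -2.76 without dying replicate 1. The surviving call was lost when any of the 4 arrays compared was left out, sham replicates 1 and 2 and surviving replicates 1 and 2 alike (differences from -3.08 to -2.09 over all arrays left out in turn), and it held under 3 of 6 other scalings. The dimmer Kif2a probe was above background on all uninjured arrays and on no injured array, at least 6.25-fold lower in surviving and at least 5.27-fold lower in dying than in sham pools.

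Dync1i1, an intermediate chain found mainly in neurons, read 10.54 and 11.08 in naive, 11.75 and 11.30 in sham pools, 10.35 and 9.77 in surviving pools and 8.35 and 9.17 in dying pools. The 4 groups did not overlap, sham pools being highest and dying pools lowest. Dying minus sham was -2.76 ± 0.52 (adjusted p = 0.00534, relative -2.30), and -2.36 without dying replicate 1. It passed under 5 of 6 other scalings and without each array other than sham replicate 1. Surviving minus sham was -1.46 ± 0.52 (adjusted p = 0.0831) and surviving minus dying 1.30 ± 0.52 (adjusted p = 0.21).

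Since these 3 genes moved together in dying neurons, the 250 bases upstream of their starts are printed from RefSeq (rat build GRCr8), 5′ to 3′ on the strand of the gene. Capitals mark any of 4 motifs searched on both strands: GGGCGG (the GC box), CCAAT (the CCAAT box), TTTGAA (a cell-cycle element) and TGACGTCA (the cyclic AMP response element), none of which lies within another. The window of Kif21a is chr7:124058541-124058790 on the minus strand, that of Kif2a chr2:40164781-40165030 on the minus strand, and that of Dync1i1 chr4:34819191-34819440 on the plus strand.
Kif21a: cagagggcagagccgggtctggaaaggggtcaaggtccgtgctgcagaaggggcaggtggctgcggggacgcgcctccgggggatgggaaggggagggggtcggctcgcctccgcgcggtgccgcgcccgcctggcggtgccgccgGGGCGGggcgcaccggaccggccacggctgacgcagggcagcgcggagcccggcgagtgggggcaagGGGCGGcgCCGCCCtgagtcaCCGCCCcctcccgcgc
Kif2a: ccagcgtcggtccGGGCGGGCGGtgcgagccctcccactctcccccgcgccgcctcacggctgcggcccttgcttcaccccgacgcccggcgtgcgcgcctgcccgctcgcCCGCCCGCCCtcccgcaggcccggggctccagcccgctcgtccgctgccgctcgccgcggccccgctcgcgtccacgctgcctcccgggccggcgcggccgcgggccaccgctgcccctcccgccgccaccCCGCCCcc
Dync1i1: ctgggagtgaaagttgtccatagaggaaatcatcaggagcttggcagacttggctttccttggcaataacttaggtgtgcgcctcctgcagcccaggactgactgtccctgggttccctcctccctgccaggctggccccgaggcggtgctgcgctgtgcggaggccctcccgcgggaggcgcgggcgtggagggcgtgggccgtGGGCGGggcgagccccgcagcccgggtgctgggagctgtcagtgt
Each of the 3 windows held GGGCGG and none of the other motifs. Promoter entries were found for 38 of the 46 motor genes, with 41 entries in all. The class counts below are of genes with a match in any of their windows. The shares over all genes are of windows, so counts and shares are unlike measures. GGGCGG was in the window of 14 of 16 axonal kinesins, 6 of 10 dynein and dynactin genes and 4 of 7 mitotic kinesins, and in 30.5% of 33469 windows of all genes, while TGACGTCA was in 2, 1 and 1 of these and in 1.59% of all windows. A match is a description, not a site or a cause.

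**Figure D2:**
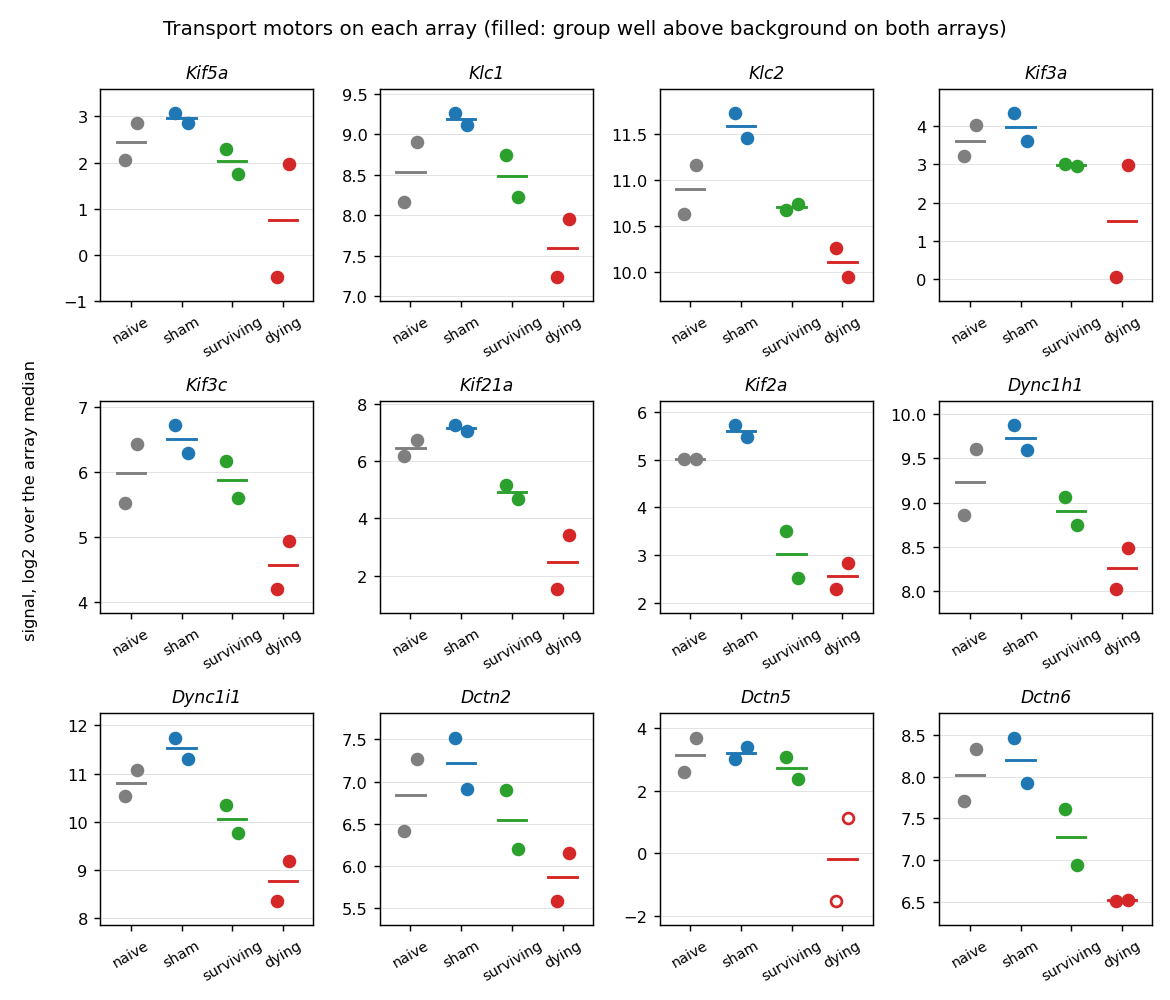
Level of 12 transport motors on each of the 8 arrays (log2 over the array median), a dot per array and a bar at the group mean, with hollow dots where the group was not well above background on both arrays. Kif21a runs from 7.26 in sham to 1.54 in dying pools, and in Kif5a, Kif3a and Dctn5 dying replicate 1 lies far below dying replicate 2.

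Kinesin-1, the main motor of fast outward transport, was measured through its heavy and light chains. Kif5a, the neuronal heavy chain, read 2.05 and 2.85 in naive, 3.07 and 2.85 in sham pools, 2.29 and 1.76 in surviving pools and -0.47 and 1.98 in dying pools. Dying replicate 1 was far below every other array, and dying replicate 2 lay among the surviving pools. Dying minus sham was -2.21 ± 0.77 (adjusted p = 0.0463, relative -1.74) but -0.98 and no longer past the threshold without dying replicate 1, and it passed under 0 of 6 other scalings. Kif5b, the widely expressed heavy chain, read 6.80 and 7.82 in naive, 7.50 and 7.78 in sham pools, 6.99 and 6.82 in surviving pools and 6.03 and 7.29 in dying pools, and the dying pools spanned the surviving ones. Its brightest probe did not pass in dying neurons (-0.97 ± 0.58, adjusted p = 0.198), whereas a dimmer Kif5b probe did (-2.95 ± 0.75, adjusted p = 0.0159), a call lost without dying replicate 1 (-1.77), on which that probe was under background. Kif5c was near background throughout, between -3.17 and -1.51.

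The light chains bind cargo and hold the motor in check. Klc1, listed on the array as Kns2, read 8.16 and 8.91 in naive, 9.26 and 9.11 in sham pools, 8.74 and 8.23 in surviving pools and 7.24 and 7.95 in dying pools. Both dying pools lay below all others. Dying minus sham was -1.59 ± 0.51 (adjusted p = 0.0351, relative -1.13), a call lost without dying replicate 1 (-1.24) and under all 6 other scalings, and surviving minus dying was 0.89 ± 0.51 (adjusted p = 0.354). A dimmer Klc1 probe, well above background on every array, differed in sign for surviving minus sham (0.68 ± 0.99, against -0.70 ± 0.51 for the brighter probe). Its dying mean (2.10) lay below its sham mean (3.15), but only through dying replicate 1, at 0.69. Dying replicate 2, at 3.51, was above both sham arrays (2.92, 3.38). Klc2 read 10.63 and 11.17 in naive, 11.73 and 11.46 in sham pools, 10.68 and 10.74 in surviving pools and 10.26 and 9.95 in dying pools, again with the dying pools lowest. It fell in dying neurons by both probes, at -1.49 ± 0.46 (adjusted p = 0.03) and, for the dimmer probe, at -2.74 ± 0.53 (adjusted p = 0.00588). The call of the brighter probe held without either naive array only, was lost without any of the other 6, and passed under 0 of 6 other scalings, while the dimmer probe passed without each array other than sham replicate 1 and under 5 of 6. Klc4 read 3.02 and 3.40 in naive, 3.86 and 3.82 in sham pools, 3.06 and 3.26 in surviving pools and 2.76 and 3.20 in dying pools, and did not pass in any comparison. Klc3 was above background in surviving pools (-1.29 and -0.07) and on neither dying array, at least 2.06-fold higher in surviving than in dying pools, but a second probe gave -0.07 (adjusted p = 0.978).

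Kinesin-2 carries vesicles in axons and also serves cilia. Kif3a read 3.23 and 4.02 in naive, 4.34 and 3.60 in sham pools, 3.02 and 2.96 in surviving pools and 0.06 and 2.98 in dying pools. Dying replicate 1 stood alone, and dying replicate 2 fell between the surviving pools. Its dying minus sham value of -2.45 ± 0.87 (adjusted p = 0.0484) was -1.0 without that array, and no longer passed, and it passed under 0 of 6 other scalings. Kif3c, a neuronal partner of Kif3a, read 5.52 and 6.43 in naive, 6.71 and 6.28 in sham pools, 6.16 and 5.59 in surviving pools and 4.20 and 4.93 in dying pools. Both dying pools were below all others. Kif3c fell in dying neurons by 1.93 on the log2 scale (SE 0.54, adjusted p = 0.0217, relative -1.46), with -1.57 and no call without dying replicate 1, and surviving minus dying was 1.31 ± 0.54 (adjusted p = 0.219). Kif3b read 7.86 and 8.10 in naive, 8.80 and 8.30 in sham pools, 8.03 and 7.46 in surviving pools and 7.63 and 7.17 in dying pools, with overlap between the injured groups, and did not pass (dying minus sham -1.15 ± 0.48, adjusted p = 0.0805). A dimmer Kif3b probe went the other way from sham to surviving neurons, at least 1.51-fold higher (adjusted p = 0.0516). Kif17 had no probe.

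Kinesin-3 motors, which move synaptic vesicle precursors and dense-core vesicles, passed in no comparison. Kif1a, the best known of them, read 2.76 and 3.47 in naive, 3.91 and 3.76 in sham pools, 3.11 and 2.81 in surviving pools and 3.04 and 2.98 in dying pools. Injured pools overlapped with each other and lay below the sham pools, at -0.88 ± 0.46 in surviving and -0.82 ± 0.47 in dying neurons (adjusted p = 0.205 and 0.175). A second Kif1a probe, which varied more between replicates, lay on the other side of sham in both (2.32 ± 1.39 and 1.09 ± 1.37). Kif1b varied widely between replicates, at -2.75 and -0.19 in naive, 1.74 and 1.23 in sham pools, 2.72 and 1.55 in surviving pools and -2.13 and 1.61 in dying pools. Kif1c, which was higher in dying than in surviving neurons, read 7.47 and 7.97 in naive, 8.98 and 8.30 in sham pools, 7.55 and 7.24 in surviving pools and 8.47 and 7.86 in dying pools, with surviving minus dying at -0.77 ± 0.50 (adjusted p = 0.414). Kif13a, read at 0.65 and -2.90 in naive, 0.54 and -2.24 in sham pools, -1.70 and -1.22 in surviving pools and 0.42 and -1.01 in dying pools, differed as much between replicates as between groups. Kif16b, an endosome motor, was above background on both surviving arrays (-0.17 and -0.29) and on no sham or naive array. Its surviving minus sham value of 2.06 ± 0.61 (adjusted p = 0.0526) just missed the threshold and passed it under 5 of the 7 scalings, and since the surviving levels were close to the lowest levels called above background on the sham arrays, no bound above 1-fold can be given. Kif21b, a relative of Kif21a, was above background only in injured pools, at -1.07 and -0.52 in surviving pools and -0.83 on dying replicate 2.

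**Figure D3:**
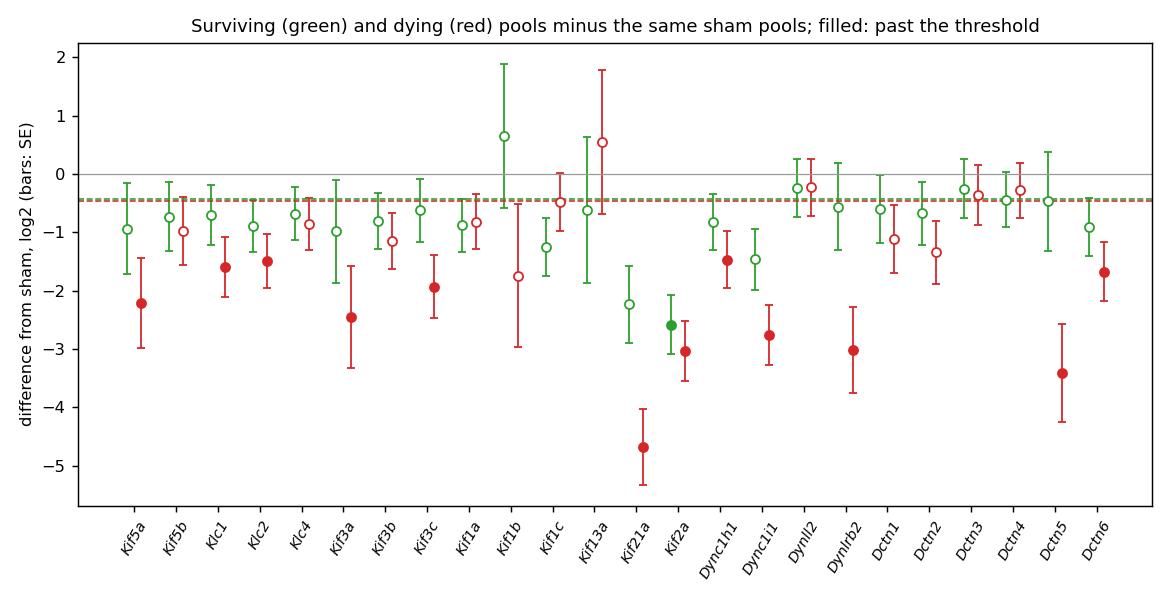
Difference of surviving (green) and dying (red) pools from the same sham pools for the 24 axonal kinesins, dynein and dynactin genes tested in both comparisons (log2, bars are SE, filled points passed the adjusted threshold), with dashed lines at the medians of all tested probes, -0.43 and -0.47. Kif21a, Kif2a and Dync1i1 are lowest or nearly so among dying points and are negative under all 7 scalings in both comparisons, while many smaller surviving differences turn sign with the scaling.

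In the dynein motor itself, the heavy chain Dync1h1, which holds the motor domain, read 8.86 and 9.60 in naive, 9.87 and 9.59 in sham pools, 9.06 and 8.75 in surviving pools and 8.03 and 8.49 in dying pools. The dying pools were lowest. Dync1h1 fell in dying neurons by 1.47 on the log2 scale (SE 0.49, adjusted p = 0.0386, relative -1.01), and by the same comparison without dying replicate 1 stood at -1.24 with no call. It passed under 0 of 6 other scalings. A dim second Dync1h1 probe read 2.21 and -1.14 in dying pools and did not follow it. The light chain Dynll1 was bright, at 10.50 and 11.12 in naive, 11.52 and 11.03 in sham pools, 10.22 and 10.21 in surviving pools and 9.53 on dying replicate 1; its spot on dying replicate 2 was non-uniform and left out, so comparisons with dying pools were not tested. Dynll2 read 7.07 and 7.75 in naive, 7.88 and 7.57 in sham pools, 7.47 and 7.50 in surviving pools and 7.85 and 7.15 in dying pools. Its dying pools spanned the surviving pools and overlapped the sham pools, while both surviving pools lay below both sham pools. Dynlrb2, a light chain of the roadblock family, read 1.55 and -0.18 in naive, 0.76 and 1.23 in sham pools, 0.16 and 0.70 in surviving pools and -2.84 and -1.20 in dying pools. Both dying pools lay below all others, with dying replicate 1 under background, and the fitted fall from sham was -3.02 ± 0.74 (adjusted p = 0.0136, relative -2.55), or -2.20 and no call without dying replicate 1. Dync1li1 was at background on all arrays, between -4.59 and -2.44.

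Dynactin, which joins dynein to its cargo, split into subunits that fell in dying neurons and subunits that did not pass. Dctn5, of the pointed-end complex, read 2.58 and 3.70 in naive, 3.02 and 3.38 in sham pools, 3.09 and 2.36 in surviving pools and -1.53 and 1.12 in dying pools. Both dying pools were lowest, with dying replicate 1 under background, so its level is not measured. The fitted dying minus sham value was -3.41 ± 0.84 (adjusted p = 0.0139, relative -2.94), and -2.08 with no call without that array. Dctn6, of the same complex, read 7.71 and 8.33 in naive, 8.47 and 7.92 in sham pools, 7.61 and 6.94 in surviving pools and 6.51 and 6.52 in dying pools. The dying pair was close together below all other arrays, and Dctn6 fell by 1.67 on the log2 scale (SE 0.50, adjusted p = 0.027, relative -1.21), a call lost without dying replicate 1 at a like value of -1.67 and under 6 of 6 other scalings. Dctn2 (dynamitin) was at 6.42 and 7.27 in naive, 7.52 and 6.91 in sham pools, 6.90 and 6.20 in surviving pools and 5.59 and 6.15 in dying pools, with an adjusted p of 0.0733 for dying minus sham. Dctn1 (p150Glued), which touches the microtubule, was at 3.31 and 4.56 in naive, 4.47 and 4.39 in sham pools, 4.28 and 3.37 in surviving pools and 3.06 and 3.58 in dying pools, with an adjusted p of 0.147. Dctn3 ran from 10.08 to 10.94 over the 8 arrays and Dctn4 from 3.83 to 5.19, and the dying pools of both overlapped the sham or surviving pools. Whether dynactin subunits differ from each other in their change was not tested.

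None of the mitotic kinesins passed in dying neurons, and of the 3 tested against sham, Kif20a and Kif23 had a mean above sham and Kif22 a mean below it. Kif20a, which acts in the last step of cell division, read 1.41 and -2.99 in naive, 0.22 and -1.22 in sham pools, -0.19 and 0.26 in surviving pools and 2.73 and 2.11 in dying pools. The dying pools were above every other array, and the naive pools differed most from each other. Dying minus sham was 2.92 ± 1.21 (adjusted p = 0.0799), past the threshold under 2 of the 7 scalings, and surviving minus dying was -2.39 ± 1.23 (adjusted p = 0.304). Kif23, its neighbour in the midzone of the dividing cell, read 1.14 and -1.13 in naive, -0.98 and 0.34 in sham pools, -0.48 and 1.76 in surviving pools and 1.87 and 1.59 in dying pools. Dying pools were above sham pools (2.05 ± 0.94, adjusted p = 0.106) and overlapped surviving replicate 2. Kif22, a chromosome motor and the only mitotic kinesin above background on all 8 arrays, read 1.51 and 2.87 in naive, 3.12 and 3.60 in sham pools, 1.69 and 2.38 in surviving pools and 3.75 and 2.50 in dying pools. Its surviving pools lay below its dying pools (-1.09 ± 0.66, adjusted p = 0.375) and below its sham pools. Kif4a, a chromosome arm motor, read 0.47 and 0.22 in naive, 0.42 and -1.60 in sham pools, -0.21 and -1.21 in surviving pools and -3.18 and -0.17 in dying pools, and its surviving minus dying value of 0.97 ± 1.02 was -0.53 without dying replicate 1. Kif11, Kif2b and Kif15 were above background on no array, and Kif14 and Kif2c on both arrays of no group.

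**Figure D4:**
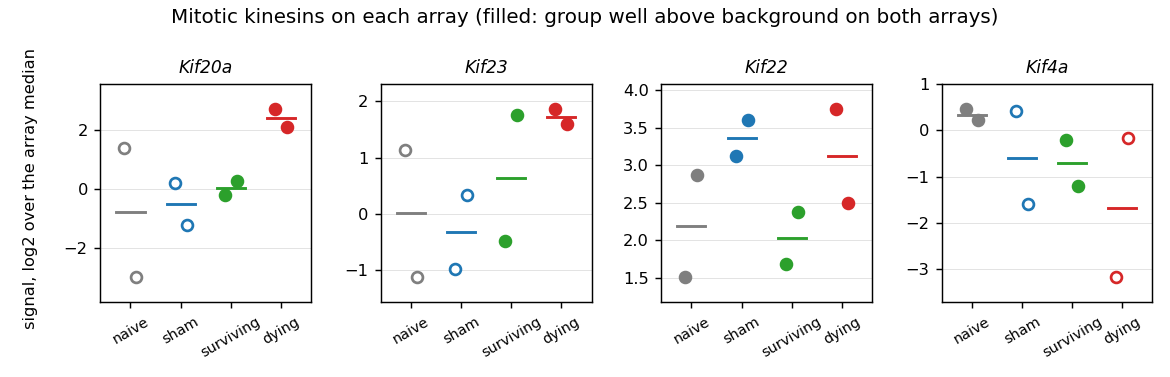
Level of the 4 mitotic kinesins tested between surviving and dying neurons on each of the 8 arrays (log2 over the array median), a dot per array and a bar at the group mean, hollow where the group was not well above background on both arrays. Kif20a stands at 2.73 and 2.11 in dying pools, above all other arrays.

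Promoter windows of Kif22 and Kif23 are printed because they hold both CCAAT and TTTGAA, letters common before genes of the cell cycle. They come from the same table, build and orientation, with chr1:191080879-191081128 for Kif22 and chr8:71320585-71320834 for Kif23, both on the minus strand.
Kif22: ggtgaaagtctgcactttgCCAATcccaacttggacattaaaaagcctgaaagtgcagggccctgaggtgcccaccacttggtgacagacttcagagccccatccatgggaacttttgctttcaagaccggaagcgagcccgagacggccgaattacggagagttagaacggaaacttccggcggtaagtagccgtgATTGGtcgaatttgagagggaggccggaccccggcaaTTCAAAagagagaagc
Kif23: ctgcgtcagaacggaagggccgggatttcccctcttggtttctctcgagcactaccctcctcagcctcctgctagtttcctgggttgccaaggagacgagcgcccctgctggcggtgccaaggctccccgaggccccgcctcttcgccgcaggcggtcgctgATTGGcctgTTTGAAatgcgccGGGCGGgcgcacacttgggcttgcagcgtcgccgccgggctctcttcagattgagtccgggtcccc
CCAAT was in a window of 5 of 7 mitotic kinesins, 4 of 16 axonal kinesins and 5 of 10 dynein and dynactin genes, and in 34% of all windows. TTTGAA was in a window of 3 of 7 mitotic kinesins, 0 of 16 axonal kinesins and 1 of 10 dynein and dynactin genes, and in 16.2% of all windows. Here too the counts are of genes and the shares of windows. These counts describe letters in the windows and carry no test.

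Ciliary and other motors held a pair of genes that differed by sign. Kif7, the kinesin of Hedgehog signalling in cilia, read 2.37 and 1.75 in naive, 2.01 and 2.04 in sham pools, 1.90 and 1.20 in surviving pools and 3.52 and 2.36 in dying pools. Both dying pools were above both surviving and both sham pools, with surviving minus dying at -1.39 ± 0.56 (adjusted p = 0.213) and dying minus sham at 0.92 ± 0.56 (adjusted p = 0.204), the latter past the threshold under 3 of the 7 scalings, above sham in each. Kif9 read 2.71 and 2.04 in naive, 2.83 and 2.49 in sham pools, 2.35 and 1.53 in surviving pools and 0.62 and 1.39 in dying pools. It fell in dying neurons by 1.66 on the log2 scale (SE 0.54, adjusted p = 0.0363, relative -1.19), a call lost without dying replicate 1 (-1.28) and under all 6 other scalings. A dim second Kif9 probe did not follow it, with means of -1.33 in sham, -0.22 in surviving and -1.01 in dying pools. That probe was well above background on both surviving arrays and 1 dying array only, and was not tested in dying minus sham. Dync2li1, of the dynein that serves cilia, was -1.28 ± 0.56 in dying minus sham (adjusted p = 0.0952). The other 4 genes, Kif6, Kif12, Kif26a and Kif27, were above background on some arrays only. Kif6 and Kif26a did not pass where tested, and Kif12 and Kif27 were tested in no comparison.

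Cargo adapters and motor regulators were read beside the motors, and no test compared the list with them. Of 29 listed genes 24 had a probe. In dying minus sham 8 of 19 tested passed, against 43.4% of all tested probes, 7 falling and 1 rising, with a median of -1.07 over the tested genes, and in surviving minus sham 3 of 19 passed, against 17.8%, 1 falling and 2 rising, with a median of -0.48. In surviving minus dying 0 passed and 3 of 19 had an unadjusted p under 0.05, against 21.1%, with a median of 0.35. In sham minus naive 0 of 17 passed and 0 had such a p, against 4.58%, with a median of 0.44. The rising genes were Clstn1 in both and Bicd1 in surviving pools, each under background in sham pools, at least 1.63-fold higher in dying pools (Clstn1) and at least 1.27-fold and 1.79-fold higher in surviving pools (Clstn1 and Bicd1). All 3 surviving calls were lost without any of the 4 arrays compared. Kifap3, the cargo subunit of kinesin-2, read 7.99 and 8.39 in naive, 8.90 and 8.73 in sham pools, 7.25 and 7.42 in surviving pools and 6.82 and 6.34 in dying pools, in that order of groups without overlap between sham, surviving and dying. It fell in dying neurons by 2.24 on the log2 scale (SE 0.45, adjusted p = 0.00702). Pafah1b1 (Lis1), the dynein regulator, fell there by 1.54 (SE 0.45, adjusted p = 0.0255). Kidins220, a signalling adapter carried by kinesin-1, fell in both, relative to all tested probes at -1.35 in surviving (adjusted p = 0.0332) and -1.54 in dying neurons (adjusted p = 0.0101). Spag9, Mapk8ip2, Fez1 and Bicd2 also fell in dying neurons. Without dying replicate 1, 5 of these 8 calls held, and those of Bicd2 (-0.98), Mapk8ip2 (-1.16) and Pafah1b1 (-1.39) were lost. All 8 were lost without sham replicate 1.

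The microtubules on which the motors run were listed with 13 genes, of which 10 had a probe. In dying minus sham 5 of 9 tested passed and all 5 fell, against 43.4% of all tested probes that passed and 28.7% that passed and fell, with a median of -1.67 over the tested genes. In surviving minus sham 0 of 9 passed, against 17.8%, and 1 had an unadjusted p under 0.05, against 36.3% (median -0.82). In surviving minus dying 0 of 8 passed and 2 had such a p, against 21.1% (median 0.92), and in sham minus naive 0 of 10 passed and 0 had such a p, against 4.58% (median 0.47). The neuronal tubulin Tubb3 read 8.98 and 9.35 in naive, 9.86 and 9.45 in sham pools, 9.04 and 8.69 in surviving pools and 7.52 and 6.87 in dying pools, with both dying pools lowest. Tubb3 fell in dying neurons by 2.46 on the log2 scale (SE 0.48, adjusted p = 0.00606). Tau (Mapt) fell by 2.45 (SE 0.57, adjusted p = 0.011) and Map1b by 2.45 (SE 0.46, adjusted p = 0.00524), and Tubb2b and Map1a fell as well. Without dying replicate 1 the call of Mapt was lost (-1.86) and the other 4 held, and without sham replicate 1 all 5 were lost.

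Proliferation genes outside the naming rule, Kifc1 among them, were set beside the mitotic kinesins. All 20 had a probe. In dying minus sham 5 of 12 tested passed, all 5 with a fitted value above sham (Cdk1, Bub1b, Racgap1, Cenpf and Kifc1), against 43.4% of all tested probes that passed and 14.7% that passed and rose, with a median of 1.35 over the tested genes and 0.58 over all 20. Of the 5, Cdk1, Racgap1 and Cenpf were under background on both sham arrays and Bub1b on sham replicate 1, so these 4 were tested through the dying arrays alone, which raises the median over tested genes. Cdk1 was at least 9.71-fold and Racgap1 at least 4.66-fold higher in dying pools, and for Cenpf no bound above 1-fold can be given. In surviving minus sham 3 of 14 passed, near the 17.8% of all tested probes, 2 rising and 1 falling, with a median of 0.53 over the tested genes and 0.21 over all 20, and only the call of Cdk1 held without each of the 4 arrays compared. In surviving minus dying 0 passed and 2 of 14 had an unadjusted p under 0.05, against 21.1%, both lower, with 12 of 14 tested genes lower in surviving neurons and a median of -0.64. In sham minus naive 0 of 7 passed, with a median of 0.56. Such a p was found for 1 (Racgap1, lower in sham pools at -1.05), against 4.58% of all tested probes. Kifc1, a minus-end kinesin of the spindle that the naming rule left out, read 0.21 and 1.33 in naive, 0.97 and 1.90 in sham pools, 1.67 and 2.21 in surviving pools and 3.46 and 3.92 in dying pools. It rose in dying neurons by 2.26 (SE 0.58, adjusted p = 0.016). Without dying replicate 1 the calls of Bub1b and Cenpf were lost, and without sham replicate 1 that of Cdk1 alone held. Cdk1 read -2.70 and -2.65 in naive and -2.19 and -1.95 in sham pools, all under background, against 2.31 and 2.71 in surviving and 3.09 and 3.01 in dying pools. Of the listed genes not named so far, Plk1, Bub1 and Birc5 were above background on all 8 arrays, Aurka on 6, Ccnb1 and Ect2 on 5, Top2a and Ccna2 on 4, Mki67, Ccnb2 and Aurkb on 1, and Prc1, Tpx2 and Cenpe on 0, while Pcna, above background on all 8, was the gene that fell in surviving pools.

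Markers of other cells moved with these results, and their part in them was not tested. Microglia and macrophage markers (12 of 12 with a probe) had a summed level of 125 and 278 in naive, 283 and 270 in sham pools, 507 and 516 in surviving pools and 2490 and 1160 in dying pools. C1qa had the brightest probe of them in uninjured, Lgals3 in surviving and C1qb in dying pools. For these marker lists, most abundant stands for the brightest probe, since levels of different probes cannot be compared. From sham to dying 6 of 9 tested rose, against 14.7% of all tested probes (4 of the 6, Cd68, C1qb, Tyrobp and Cd14, also without dying replicate 1), and from sham to surviving 1 of 11, against 6.48% (Lgals3, lost without sham replicate 1 or either surviving array), while Ptprc was above background on surviving replicate 2 only, and Itgam and Cx3cr1 were under background in all uninjured pools. Between surviving and dying pools 0 of 10 tested passed and 5 had an unadjusted p under 0.05, against 21.1% of all tested probes, all 5 lower in surviving pools. Cx3cr1 on dying replicate 1 was under background, and Lgals3 on dying replicate 2 had a non-uniform spot. Fewer of these markers passed from sham to dying without either sham array, and more passed from sham to surviving without either dying array. Not every marker rose: from sham to dying 9 of 12 were higher and 3 lower, namely Aif1 (-0.15), Csf1r (-0.35) and Cx3cr1 (-0.81, not tested). Aif1 was also lower in surviving than in sham pools (-1.59), without passing the threshold. By the sums, the dying pools had the higher level of this list and the lower level of the pyramidal list, beside the transport motors that fell against sham.

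Oligodendrocyte precursor markers (5 of 5, Olig1 most abundant, Olig2 under background in all uninjured pools and on dying replicate 1) summed to 420 and 417, 638 and 476, 288 and 306, and 1100 and 577 in the order naive, sham, surviving and dying, which holds for the sums below as well, with 1 of 5 tested falling from sham to surviving and 0 of 4 passing from sham to dying, where 1 had an unadjusted p under 0.05. Astrocyte markers (9 of 9, Slc1a3 most abundant, S100b under background in injured pools, Fgfr3 in uninjured ones) summed to 845 and 1040, 1510 and 958, 501 and 528, and 1250 and 571, with 1 rising and 2 falling of 8 tested from sham to either injured group. Endothelial and pericyte markers (8 of 9, Tek under background throughout) summed to 74.2 and 111, 122 and 93.7, 80.8 and 72.4, and 386 and 143, Kdr, Pdgfrb or Vwf being most abundant, with 1 of 7 tested rising from sham to surviving and 2 of 7 from sham to dying. Interneuron markers (8 of 8, Cck most abundant) summed to 1570 and 2360, 2060 and 2250, 2440 and 2560, and 6960 and 1990, with Gad2 under background in uninjured pools and 1 of 8 tested falling from sham to surviving and 2 of 8 from sham to dying. Neutrophil and lymphocyte markers (8 of 8, Cd3d most abundant) summed to 10.0 and 9.14, 9.28 and 8.98, 16.0 and 16.3, and 45.3 and 37.7, with 1 of 4 tested passing above sham in surviving pools (Mpo, for which no bound above 1-fold can be given) and 3 of 3 passing above sham in dying pools. Of these 3, S100a8 and S100a9 were under background on both sham arrays, so they were tested through the dying arrays alone. They were at least 10.5-fold and 5.01-fold higher in dying pools, and Cd3d was above background in both groups. Of 10 pyramidal markers tested, 1 rose and 1 fell from sham to surviving, and 1 rose and 3 fell from sham to dying. The rising marker in both was Syn1. Like the rising Fgfr3 and Flt1, it was under background on both sham arrays and was tested through the injured arrays alone. These counts are to be read against 6.48% of all tested probes rising and 11.3% falling from sham to surviving, and 14.7% rising and 28.7% falling from sham to dying. Without any of the 4 arrays compared, 0 markers of these lists passed from sham to surviving. From sham to dying, fewer pyramidal, astrocyte, interneuron, endothelial and neutrophil and lymphocyte markers passed without sham replicate 1. Without dying replicate 1 this held for all of these other than the astrocyte markers. Without dying replicate 2, more pyramidal, interneuron and endothelial markers passed. For each of these lists limma called 0 markers between surviving and dying and 0 between sham and naive, with 1 and 0 pyramidal markers, 2 and 1 astrocyte, 2 and 0 precursor, 2 and 0 endothelial, 1 and 0 interneuron and 1 and 0 neutrophil and lymphocyte markers at an unadjusted p under 0.05, against 21.1% and 4.58% of all tested probes. Dying replicate 1 had the largest sum of every list in this and the preceding paragraph other than the astrocyte and pyramidal ones, and the part of these lists in the motor results was not tested.

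**Figure D5:**
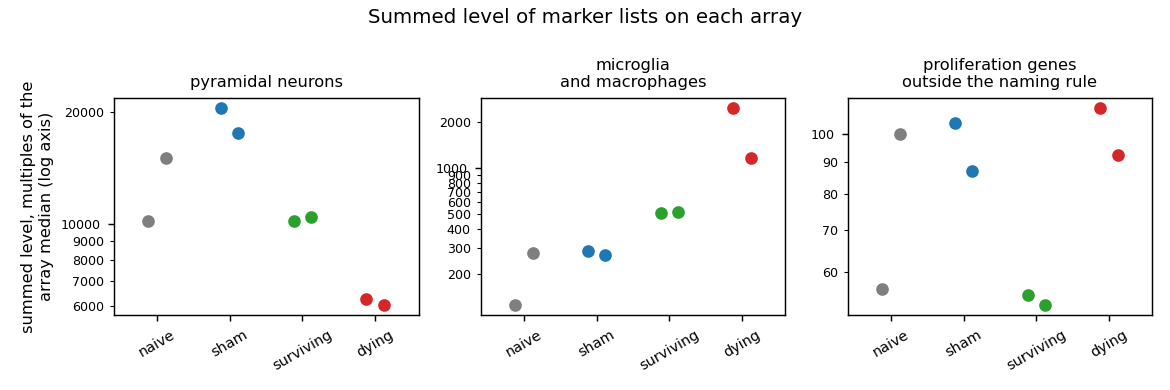
Summed level of 3 marker lists on each array, in multiples of the array median on a log axis, a dot per array. Pyramidal markers are lowest (6290 and 6030) and microglia and macrophage markers highest (2490 and 1160) in dying pools.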

How the data were processed

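RNA of CA3 neurons was measured on 8 Agilent arrays of 1 colour, 2 for each of naive, sham, surviving and dying pools. The processed intensity in the file of each array comes from the authors' run of Agilent Feature Extraction 9.1.3.1, subtracting background and removing trends within the array, without normalization between arrays. The deposited files also hold spot and background intensities and 0 or 1 marks for non-uniform spots and spots well above background. Deposited series values are a signal as well: the processed signal divided by a constant for each array, and were used as an alternative. Depth is given in the report as median signal and probes above background, and precision is limited by 2 arrays a group.

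After non-uniform spots were removed, the mean over the spots of a probe was divided by the array's all-probe median, raised to 0.01 where lower, and put on the log2 scale, with Python 3.11.15 (pandas 2.3.3, numpy 2.4.6). The 4 groups were fitted to all 8 arrays with limma 3.58.1 in R 4.3.3, leaving 4 residual degrees of freedom before moderation. The contrasts were surviving minus dying, surviving minus sham, dying minus sham and sham minus naive. A probe was tested when 1 or both groups had it well above background on 2 of 2 arrays, with p-values adjusted by the Benjamini-Hochberg method over all tested probes of a contrast and a threshold of 0.05. The fit was tested on simulated data. A gene was read from its brightest probe unless another is named. For a group with a probe above background on none of its arrays, a bound was taken from the lowest signal called above background there.

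All member genes were accounted for by role. The rule for genes with values on every array named the kinesin-1 chains, kinesin-2, Kif1a, Kif1b, Kif21a, Kif21b, Kif2a, dynein-1, dynactin and the mitotic kinesins above background in a group. It added the 5 genes in each direction with the smallest p between surviving and dying (3 in the other comparisons) among those above background on all 4 arrays and without overlap of groups. Lists covered cargo adapters, microtubule tracks, proliferation genes and 7 sets of cell type markers, and a further set is not reported here. Other members were named after their values were seen. Members and lists were chosen with earlier results of these data known. Alternatives changed the scaling, background correction, filters, floor, weights, arrays in the fit, replicate block and probe of a gene, and left out each array in turn. Promoter windows are the 250 bases upstream in the RefSeq annotation of GRCr8, searched on both strands.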

Additional observations from a re-analysis of the deposited data

How the results depend on the processing

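Counts of motor probes past the threshold moved with scaling and with single arrays. For dying minus sham the count of 16 was 7 with the 75th percentile, 8 with quantile normalization, 8 when scaled to probes above background on all 8 arrays, 9 when scaled to RefSeq probes, 0 with normexp background correction and 8 with the series values of the authors, and 3 to 18 when each array was left out in turn. The lowest, 3, was without sham replicate 1; it was 6 without sham replicate 2, 6 without dying replicate 1 and 10 without either surviving array. Under 7 other alternatives it stayed within 1.5 times 16. For surviving minus sham the count of 2 was 4 with the 75th percentile, 5 when scaled to probes above background, 4 when scaled to RefSeq probes, 0 with normexp, 4 with the series values, 9 with array weights and 11 with only the 4 arrays compared, and 0 to 6 with an array left out. For surviving minus dying the count of 0 in limma (10 at an unadjusted p under 0.05) was 0 to 12 with an array left out, 12 being without dying replicate 2. For sham minus naive the count of 0 in limma (1 at an unadjusted p under 0.05) was 1 with only the 4 arrays compared, and 0 with each array left out. Where leaving out an array leaves 1 in its group, its spread is taken from the other groups, that is, the lone array is assumed to vary as they do.

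A replicate block on the 4 arrays of injured rats gave 0 motor probes between surviving and dying, and a crossed block, pairing surviving replicate 1 with dying replicate 2 and added after the data were seen, gave 1. Differences between replicates correlated at -0.1944 between surviving and dying pools and between -0.0607 and 0.0715 in the other pairs of groups, so the replicate numbers give no pairing.

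Over all genes of a class, tested or not, the median of mitotic kinesins between surviving and dying, -0.67, ran from -1.23 to 0.08 with an array left out. That of dynein and dynactin, 0.66, was 0.29 when scaled to RefSeq probes and 1.56 with normexp. That of axonal kinesins, 0.87, kept its sign under all 11 alternatives (0.45 to 1.27) and with each array left out (0.35 to 1.06). The count over 2-fold, 0, was 1 with the 75th percentile, 2 with quantile normalization, 1 with the series values, 3 when the smaller replicate had to reach 50% of the larger, 10 with no filter on replicates, and 0 to 11 with an array left out.

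Of 480 values of 30 named genes between surviving and dying, 457 kept their direction, 23 turned, in 13 genes, and 6 passed the threshold, all without dying replicate 2 (Kif5a, Kif3a, Kif1b, Kif21a, Dctn5 and Kif7). With quantile normalization Kif5b was -0.08, Kif3b -0.01 and Dctn3 -0.04. Scaled to RefSeq probes, Kif5b was -0.09, Klc4 -0.15 and Dctn3 -0.21. With normexp, Kif1a was 0.83, Kif21b -0.15, Dctn4 1.07, Kif22 0.09, Kif4a -0.25 and Kif1c 0.76. Kif1a was 0.00 with the 75th percentile, 0.02 with the series values and 0.59 as a mean over probes, which also put Dync1h1 at -0.03. With an array left out the range was -0.39 to 0.87 for Kif5b, -0.04 to 0.40 for Klc4, -0.21 to 0.10 for Kif1a, -0.04 to 0.95 for Kif2a, -0.28 to 0.51 for Dctn3, -2.21 to 0.03 for Kif23 and -0.53 to 2.47 for Kif4a. The cause of these changes was not tested.

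Signal over background limits the dim members: 10 of the 65 motor probes were well above background on no array and 28 on all 8.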

Other observations

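Some motor subunits carry older names on the array, outside the naming rule, and were looked up after the data were seen. The dynein light chain Dynlrb1 (Dncl2a) read 8.97 and 9.59 in naive, 9.90 and 9.37 in sham pools, 8.50 and 8.48 in surviving pools and 7.62 and 7.15 in dying pools, and dying minus sham was -2.24 ± 0.48 (adjusted p = 0.00853), lower on 2 of 2 dying arrays, and -2.48 and still past the threshold without dying replicate 1, but -1.98 and not past it without sham replicate 1. The ciliary heavy chain Dync2h1 (Dnch2) read -0.45 and 2.12, 2.68 and 1.31, 0.81 and 0.19, and -1.85 and -1.16 in the same order, with -3.49 ± 0.86 (adjusted p = 0.0136), but dying replicate 1 was under background, and without it the value was -3.15 and no longer passed, nor did it without sham replicate 1 (-2.81). For the intermediate chain Dync1i2 (Dncic2) the brighter of 2 probes was at 0.49 ± 0.69 (adjusted p = 0.576) and the dimmer at -4.29 ± 0.81 (adjusted p = 0.00534), or -3.02 and still past the threshold without dying replicate 1, where it was under background, and why the probes differ was not tested. The brighter probes of Dync1li2 (Dncli2, -1.22 ± 0.49, adjusted p = 0.0739) and Dynlt3 (Tcte1l, 0.77 ± 0.55, adjusted p = 0.276) and the probe of Dynlt1 (Tctex1, 0.94 ± 0.57, adjusted p = 0.2) did not pass. The dimmer Dynlt3 probe passed in dying minus sham (adjusted p = 0.00911), where it was under background on both dying arrays and at least 5.27-fold lower than in sham pools, and the call was lost without dying replicate 1 and without sham replicate 1. It also passed in surviving minus sham (adjusted p = 0.0465), with surviving replicate 1 under background, a call lost without any of the 4 arrays compared.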
